A study of Mus musculus with 8 samples.

Results

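The AP-1 family transcription factors described here are 9 genes: Fos, Fosb and Fosl2, Jun, Junb and Jund, Maff and Mafk, and Atf3. All 9 listed symbols were present among the 14042 gene symbols of the deposited tables. The symbols were selected on earlier results from these same libraries, in which the genes were higher in sorted T follicular helper (TFH) cells than in naive CD4 T cells. Values between those cell populations are therefore given as a description, and the count of calls shown there is no evidence about the members. KO against WT comparisons were not used in the choice and were tested.

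RNA from mouse CD4 T cells was sequenced in 8 libraries that fall into 4 groups of 2. The naive groups are CD4 T cells sorted as CD62Lhi and CD44 lo, of wild type (WT) or C5aR1-/- (KO) genotype, the latter lacking a receptor for the complement fragment C5a. The TFH groups are donor CD4 cells sorted as CXCR5+ and PD1hi from spleens of (bxd)F1 recipients at day 7, after transfer of WT or C5aR1-/- spleen cells from which CD8 cells had been removed. Only the TFH groups had thus passed through a recipient, so transfer, host and cell population cannot be told apart in the TFH against naive comparisons. The sources used here give no age, sex, donor strain or deletion allele, and no time from spleen to lysis. They also do not say whether both libraries of each group stem from different animals, so the p-values cover only variation between libraries, possibly technical in origin.

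AP-1 is a dimeric transcription factor built from proteins with a basic DNA-binding region and a leucine zipper (bZIP). Fos proteins pair with Jun proteins and cannot pair with themselves, Jun proteins can do both, and ATF and small Maf proteins are related bZIP factors that share some partners. Many of these genes are immediate early genes, transcribed within minutes of T cell receptor, cytokine or stress signals through MAP kinases. In T cells AP-1 is best known for binding DNA together with NFAT at cytokine genes after antigen recognition and costimulation.

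Promoter sequence is shown first. All 9 members were searched near their start sites for the motifs named below, and how alike their values were played no part in the search. RefSeq windows on GRCm38.p6, from 250 bases before to 50 bases after each listed start, were found for all 9 genes, in 11 windows because Maff has 3 listed starts. Motifs searched on both strands were TGACG, the core of the cyclic AMP response element (CRE), TGACGTCA, the full CRE, TGACATCA, the variant known from the Jun promoter, and TGANTCA, the AP-1 site. TGACG lies inside TGACGTCA, so a full CRE is also counted as TGACG. The segments below run 5′ to 3′ on the gene's strand with 25 bases on each side, and capitals mark the match.
Fos: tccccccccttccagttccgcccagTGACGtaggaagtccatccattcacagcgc
Fosb: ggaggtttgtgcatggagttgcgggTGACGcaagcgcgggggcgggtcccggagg
Junb: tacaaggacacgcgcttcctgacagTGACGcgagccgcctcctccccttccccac
Mafk: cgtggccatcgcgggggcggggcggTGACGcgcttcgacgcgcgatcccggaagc
Atf3: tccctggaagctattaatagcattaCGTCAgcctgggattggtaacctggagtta
Maff: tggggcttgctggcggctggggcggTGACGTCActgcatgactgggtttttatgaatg
Jun: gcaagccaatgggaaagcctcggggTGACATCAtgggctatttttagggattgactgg

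The TGACG match shown began 66 bases before the start in Fos (chr12:85473799-85473853, plus strand), whose window held another at 129 bases. It began 60 bases before it in Fosb (chr7:19310076-19310130, minus strand) and 106 bases before it in Junb (chr8:84978825-84978879, minus strand). In Mafk it began 41 bases before the start (chr5:139791470-139791524, plus strand), and in Atf3 it began 7 bases before it and read on the opposite strand (chr1:191183311-191183365, minus strand). The full CRE of Maff began 29 bases before its second listed start (chr15:79347466-79347523, plus strand), and the TGACATCA of Jun 45 bases before its start (chr4:95052235-95052292, minus strand). The window of the third listed start of Maff also held a TGACG on the opposite strand at 122 bases and a TGACATCA at 45 bases. TGACG was present in 6 of 9 members against 33.4% of the 10875 measured genes with a window. TGACGTCA was present in 1 member against 3.35% of genes, and TGACATCA in 2 members, Jun and Maff, against 2.41%. No member window held TGANTCA, which 6.63% of genes had, and none of these motifs was in the windows of Fosl2 and Jund. Those windows lie 671 and 1210 bases from the GENCODE vM21 gene start, and that of Atf3 34706 bases. A match is only a run of letters in the window and does not show that a factor binds there.

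By GENCODE vM21 on GRCm38, Jun (chr4:95049034-95052222), Junb (chr8:84974484-84978718) and Jund (chr8:70698949-70700616) have a single exon in every coding transcript. Single-exon genes made up 1.32% of the 13186 measured coding genes. The median span of the members was 7.36 kb, against 25.9 kb for those coding genes, and 8 of 9 members were shorter than that, Atf3 (chr1:191170296-191218039) being the exception. Fos spans chr12:85473890-85477273, Fosl2 chr5:32135801-32157842, Maff chr15:79346621-79359076 and Mafk chr5:139791513-139802653. Fosb (chr7:19302696-19310051) lies 3.04 Mb from C5ar1, the deleted gene, on the same chromosome. C5ar1 itself was not analysed here and the genotypes are taken from the labels. Junb overlaps Prdx2 on the opposite strand, and no source used here gives the strand setting of the counting, so their shared reads cannot be told apart. Prdx2 stayed within 11.28 to 11.75 in all 8 libraries.

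Levels below are deposited log values, with the base taken as 2 from their size, so a difference of 1 is a doubling. All libraries shared nearly the same sorted values, as quantile normalization gives, and their depth is unknown. Whether they were scaled by gene length is not given, so the text compares levels between libraries and not between genes. In bulk RNA, fewer cells of a type and less RNA per cell cannot be told apart.

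The sorted cells carried T cell transcripts throughout, with Cd4 at 15.48 to 15.63 in naive and 15.53 to 15.69 in TFH libraries. Not all T cell markers were as even as Cd4. Of 12 such markers, limma (adjusted p below 0.05) called 1 higher and 3 lower in TFH than in naive cells in WT. In KO it called 0 higher and 5 lower. Of all genes, 26.3% were called in WT and 19.5% in KO. Il21, the TFH cytokine gene, was 7.31 to 8.19 in naive and 9.58 to 10.40 in TFH libraries. Cxcr5 was 11.56 to 12.45 in naive and 10.85 to 11.56 in TFH libraries, and Cd44 was 12.53 to 13.04 and 11.97 to 12.11, so neither sort marker was higher in the TFH libraries at the RNA level. Pdcd1, which encodes PD1, was 10.80 to 11.97 and 11.88 to 12.85. The groups are called by their labels. Summed levels are the log2 of the added linear values of a list, so its highest genes weigh most. Those of 16 B cell markers were 13.57 to 14.82 in naive libraries. They were 12.48 and 14.84 in replicates 1 and 2 of TFH WT and 12.24 and 16.31 in those of TFH KO. The TFH libraries of a group thus differed from each other more than naive ones did. Summed levels of 14 myeloid markers were 14.17 to 15.86 in naive and 11.47 to 13.34 in TFH libraries, and those of 11 CD8 T and NK cell markers 13.65 to 13.97 and 12.30 to 13.14. By limma, 0 of 16 B cell markers were called between TFH and naive cells in either genotype. Of 14 myeloid markers 2 were called lower in WT and 1 in KO, and of 11 CD8 T and NK markers 6 and 5. Of all genes, 26.3% and 19.5% were called. The myeloid medians were -2.92 in WT and -1.35 in KO, with 0 and 1 of 14 markers positive, so few calls do not mean small differences. Medians were -1.625 and -0.75 for CD8 T and NK markers and -0.44 and -0.29 for B cell markers. Within the TFH groups replicate 2 had the higher myeloid sum, 12.98 against 11.47 in WT and 13.34 against 11.92 in KO. Its CD8 T and NK sum was also the higher, 12.66 against 12.30 in WT and 13.14 against 12.63 in KO. Summed levels of 14 heat shock genes were 17.54 to 17.99 in naive and 18.21 to 18.60 in TFH libraries. The stress-induced Hspa1a and Hspa1b did not follow that sum. Hspa1a stood at 7.999 and 11.97 in naive WT, 2.64 and 2.93 in naive KO, 8.58 and 9.17 in TFH WT, and 4.64 and 5.71 in TFH KO. Hspa1b stood at 9.99 and 13.81, 5.88 and 4.85, 9.72 and 10.17, and 5.85 and 6.30 in the same order. Both were lower in every KO library than in every WT library of the same population, with naive WT replicate 2 the highest of all, though neither was called by limma between genotypes (adjusted p = 1). Their sequences are nearly identical, so the split of reads between them is uncertain. Only the B cell marker level was used as a covariate, in the fits given below. The part of the myeloid, CD8 T and NK and heat shock transcripts in the AP-1 values was not tested.

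All 9 members had both TFH libraries above both naive libraries in WT and again in KO. The same held for 33.1% of all genes in WT and 27.6% in KO. By limma with Benjamini-Hochberg adjustment over all genes, an adjusted p below 0.05 was given to 9 of 9 members in each genotype and to 26.3% of all genes in WT (12.6% called higher) and 19.5% in KO (9.12% called higher). This contrast chose the members, so these counts were fixed by the choice and are no test, and nothing is read from them. The median difference of the members was 2.67 in WT and 2.87 in KO, beside 0.01 and -0.01 for all genes.

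**Figure D1:**
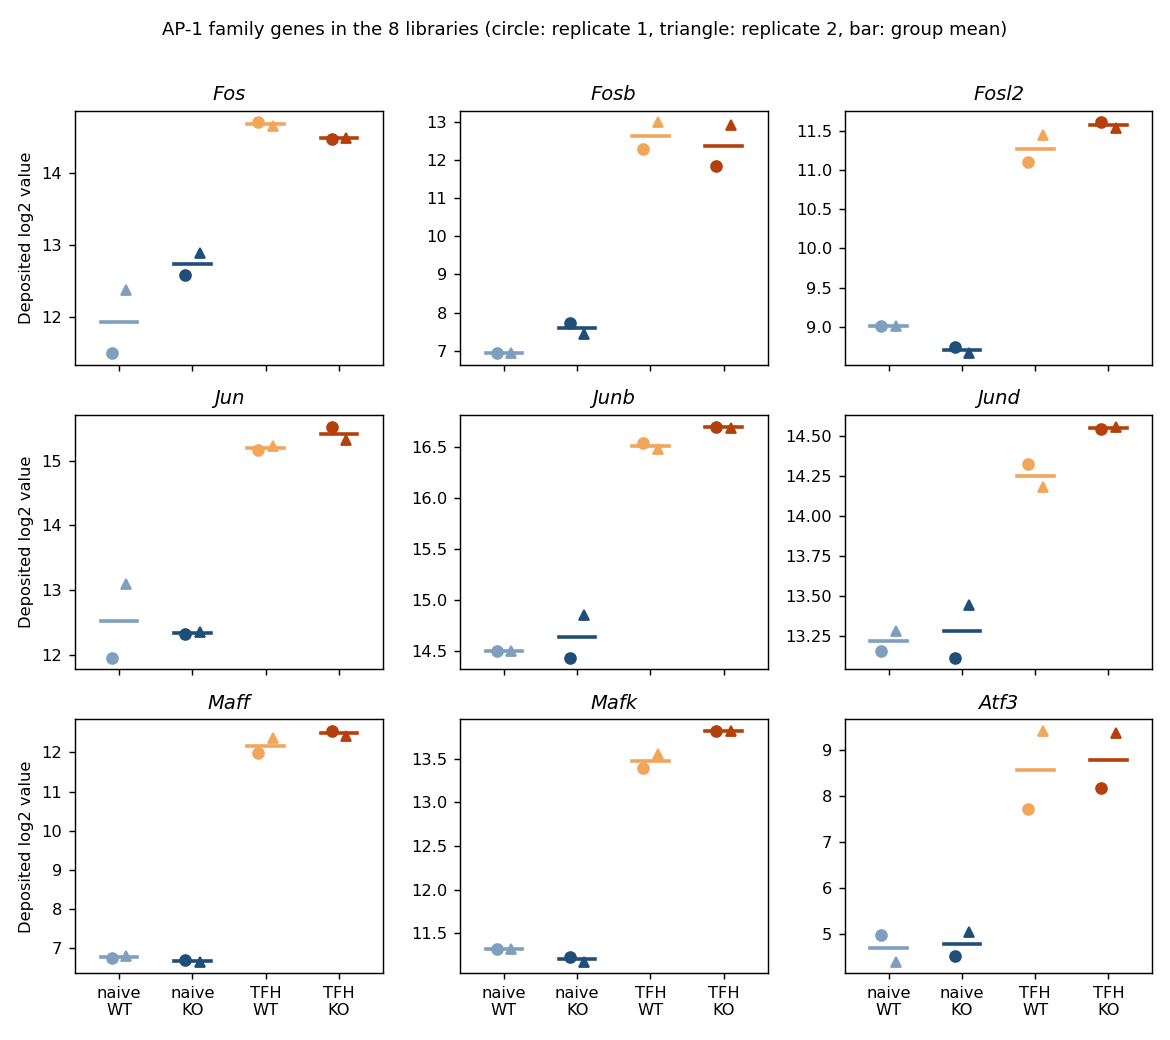
Deposited log2 values of the 9 AP-1 family genes in each library, by group (x axis), with a scale of its own for each gene that does not start at 0. Circles are replicate 1, triangles replicate 2 and bars group means; every TFH library lies above every naive library of the same gene, with the widest gaps between replicates in Atf3.

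Fos proteins form AP-1 only together with a partner, usually a Jun protein. Fosb stood at 6.95 and 6.93 in naive WT, 7.74 and 7.45 in naive KO, 12.30 and 12.99 in TFH WT, and 11.84 and 12.93 in TFH KO. Naive libraries were low and TFH libraries high in both genotypes, with no overlap. The difference of TFH and naive means was 5.71 ± 0.41 (SE, n = 2 libraries per group) in WT, a 52.2-fold difference, and 4.80 ± 0.41 in KO, or 27.8-fold. Replicate 2 was above replicate 1 by 0.69 in TFH WT and by 1.09 in TFH KO, in the same libraries that had the higher B cell marker sums. Those libraries also had the higher myeloid and CD8 T and NK marker sums, whose part in the Fosb values was not tested. With the B cell marker level as a covariate, the Fosb difference was 5.82 ± 0.125 in WT and 4.87 ± 0.124 in KO. The difference thus changed little, while its error was smaller than the 0.41 of the fit without the covariate. Without replicate 2 of both TFH groups the Fosb difference was 5.36 and 4.25.

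Fos, the founding immediate early gene of the family, stood at 11.49 and 12.38 in naive WT, 12.59 and 12.89 in naive KO, 14.71 and 14.67 in TFH WT, and 14.49 and 14.50 in TFH KO. The naive WT libraries were the lowest and also the furthest apart within a group. TFH exceeded naive by 2.76 ± 0.28 (6.77-fold) in WT and by 1.75 ± 0.28 (3.37-fold) in KO. Fosl2, which encodes Fra-2 and lacks the strong transactivation domain of Fos, stood at 9.01 and 9.02 in naive WT, 8.74 and 8.66 in naive KO, 11.10 and 11.45 in TFH WT, and 11.61 and 11.53 in TFH KO. Its values were tight in 3 of 4 groups, with TFH WT the most spread. The TFH minus naive difference of Fosl2 was 2.26 ± 0.14 (4.79-fold) in WT and 2.87 ± 0.14 (7.30-fold) in KO.

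Jun, the main transactivating partner of Fos, stood at 11.96 and 13.10 in naive WT, 12.33 and 12.36 in naive KO, 15.17 and 15.22 in TFH WT, and 15.53 and 15.31 in TFH KO. The naive WT libraries lay 1.15 apart and enclosed both naive KO libraries. The Jun difference was 2.67 ± 0.37 (6.35-fold) in WT and 3.08 ± 0.37 (8.46-fold) in KO. Junb, which activates or represses AP-1 targets depending on its partner, stood at 14.49 and 14.50 in naive WT, 14.43 and 14.85 in naive KO, 16.54 and 16.49 in TFH WT, and 16.70 and 16.69 in TFH KO. Its TFH minus naive difference was 2.02 ± 0.13 (4.06-fold) in WT and 2.06 ± 0.13 (4.16-fold) in KO. Jund, the Jun gene that resting cells are known to express most steadily, stood at 13.16 and 13.28 in naive WT, 13.12 and 13.45 in naive KO, 14.32 and 14.18 in TFH WT, and 14.55 and 14.56 in TFH KO. Jund had the lowest difference of the 9 members, 1.03 ± 0.12 (2.04-fold) in WT and 1.27 ± 0.12 (2.41-fold) in KO.

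The small Maf proteins lack a transactivation domain and pair with CNC and BACH factors as well as with each other. Maff stood at 6.76 and 6.80 in naive WT, 6.70 and 6.65 in naive KO, 11.98 and 12.37 in TFH WT, and 12.55 and 12.43 in TFH KO. No naive library came within 5 log2 units of a TFH library. The difference was 5.40 ± 0.16 (42.1-fold) in WT and 5.82 ± 0.16 (56.3-fold) in KO. By size of rise among all 14042 genes, Maff ranked 3 in WT and 2 in KO, and Fosb ranked 2 and 8. Mafk stood at 11.31 and 11.32 in naive WT, 11.23 and 11.17 in naive KO, 13.39 and 13.56 in TFH WT, and 13.82 and 13.82 in TFH KO. The replicates of Mafk lay close together in every group, and its difference was 2.16 ± 0.10 (4.47-fold) in WT and 2.62 ± 0.10 (6.14-fold) in KO.

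Atf3, a stress-induced member of the ATF family that pairs with Jun proteins, stood at 4.98 and 4.39 in naive WT, 4.52 and 5.03 in naive KO, 7.72 and 9.40 in TFH WT, and 8.17 and 9.36 in TFH KO. All 4 naive values were at or below 5.03, while the lowest TFH value was 7.72. The naive values stood at percentiles 0.1 to 0.3 of all genes in their libraries. That is inside the lowest 1%, which was left out when the sorted values of the libraries were compared. The fold differences of Atf3 thus start from values near the floor, and their size is uncertain. TFH replicates lay 1.69 apart in WT and 1.19 apart in KO, with replicate 2 the higher in both. The difference was 3.87 ± 0.65 (14.7-fold) in WT and 3.99 ± 0.65 (15.9-fold) in KO, the widest errors of the 9 members. With the B cell marker level as a covariate the Atf3 difference was 4.05 ± 0.34 in WT and 4.10 ± 0.34 in KO, again with smaller errors. Without replicate 2 of both TFH groups the Atf3 difference was 3.03 and 3.40.

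**Figure D2:**
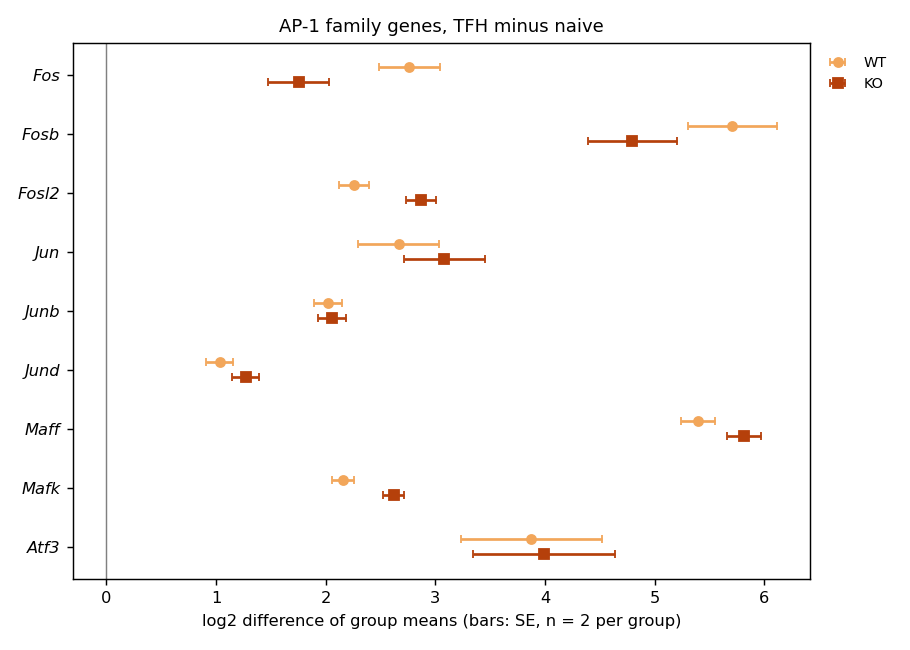
TFH minus naive difference in log2 units for each AP-1 family gene, in WT (orange circles) and KO (dark red squares), with bars for 1 standard error of the model. The members were chosen on this contrast; Fosb and Maff lie furthest to the right and Jund is the lowest in both genotypes.

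Profiles over the 8 libraries were compared after each gene was centred on its own mean, as a root mean square distance in log2 units. Fosl2 and Mafk were the closest pair at 0.122. Fosb and Maff were each other's nearest member at 0.496, while Maff and Jund were the furthest apart at 2.23. Jun lay nearest to Fosl2 (0.338), Fos to Junb (0.366), Junb to Mafk (0.244), Jund to Junb (0.449), and Atf3 to Fosb (0.790). Among 10323 other genes with a mean log2 value of at least 8, those nearest to the mean profile of the members were Dusp4 (0.133) and Dusp1 (0.141), which encode phosphatases that switch off MAP kinases, and Nfkbiz (0.150), an atypical IκB protein gene. Next came Siah2 (0.161), a ubiquitin ligase gene, Rgs2 (0.174), a regulator of G protein signalling, Gadd45b (0.177), H2-Q2 (0.195) and Ppp1r15a (0.207), a stress-induced phosphatase subunit gene. H2-Q2 is a class I MHC gene with near-identical relatives, so its reads are uncertain. All these distances are dominated by the shared difference of TFH and naive libraries.

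Whether loss of C5aR1 went with other AP-1 levels was asked in each population. No member passed the test in TFH cells, where 0 of 14042 genes (0%) were called by limma and the adjusted p of each of the 9 members was 1. The smallest adjusted p of any gene was 0.475, and 506 genes had an unadjusted p below 0.05, among them 3 members. With 2 libraries against 2, an exact two-sided permutation test of a single gene cannot go below p = 0.33. Both TFH KO libraries lay above both TFH WT libraries in 6 members and below them in 1, Fos, while Fosb and Atf3 overlapped. Such separation in either direction was seen in 33% of all genes. The median KO minus WT difference of the members was 0.22, beside 0.001 for all genes. In the same libraries the heat shock genes Hspa1a and Hspa1b had KO minus WT differences of -3.70 ± 1.42 and -3.87 ± 1.38 (limma adjusted p = 1), and their part in the AP-1 values was not tested.

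Mafk had the smallest unadjusted p of the members in TFH cells, with a KO minus WT difference of 0.34 ± 0.10 (95% interval 0.13 to 0.56, limma adjusted p = 1). For Jund it was 0.30 ± 0.12 (0.03 to 0.57) and for Fosl2 0.30 ± 0.14 (0.00 to 0.60). These 3 are the members under an unadjusted 0.05. Maff differed by 0.32 ± 0.16 (-0.02 to 0.65), Junb by 0.18 ± 0.13 (-0.09 to 0.46) and Jun by 0.22 ± 0.37 (-0.72 to 1.17). Fos differed by -0.20 ± 0.28 (-0.88 to 0.48), Fosb by -0.26 ± 0.41 (-1.27 to 0.75) and Atf3 by 0.20 ± 0.65 (-1.36 to 1.77). With the B cell marker level as a covariate, Fosb differed by -0.45 ± 0.13 (limma adjusted p = 0.597) and Atf3 by -0.08 ± 0.35 (0.997). The intervals of Jun, Fosb and Atf3 reach past a doubling in at least 1 direction, so for these genes the libraries do not show that the genotypes were alike.

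**Figure D3:**
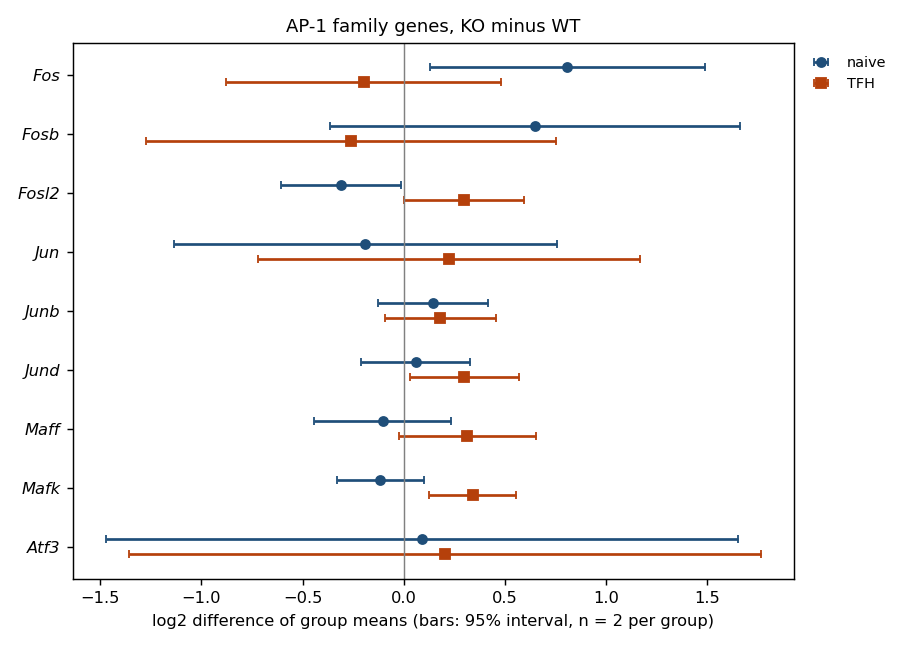
KO minus WT difference in log2 units for each AP-1 family gene in naive (blue circles) and TFH (dark red squares) libraries, with bars for the 95% interval. No member passed the limma adjusted test in either population; Atf3 has the widest intervals and Mafk the narrowest.

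In naive cells 10 of 14042 genes (0.0712%) were called and again none of the 9 members, each with a limma adjusted p of 1. Both KO libraries lay above both WT libraries in Fos and Fosb and below them in Fosl2, Maff and Mafk, while 4 members overlapped. Separation in either direction held for 26.4% of all genes. The KO minus WT difference was 0.81 ± 0.28 for Fos (0.13 to 1.49) and -0.31 ± 0.14 for Fosl2 (-0.61 to -0.01), the 2 members with an unadjusted p below 0.05, as 355 genes had. For Fosb it was 0.65 ± 0.41 (-0.36 to 1.66), for Maff -0.10 ± 0.16 (-0.44 to 0.23) and for Mafk -0.12 ± 0.10 (-0.33 to 0.10). Jun, Junb, Jund and Atf3 differed by -0.19 ± 0.37, 0.14 ± 0.13, 0.06 ± 0.12 and 0.09 ± 0.65. The intervals of Fos, Fosb, Jun (-1.14 to 0.76) and Atf3 (-1.47 to 1.65) reach past a doubling in at least 1 direction. In naive cells, too, the libraries do not show for any member that the genotypes were alike. The Fos value depended on the naive WT libraries, which lay 0.89 apart. It was 0.36 (limma adjusted p = 0.999) without replicate 1 and 1.25 (limma adjusted p = 0.0165) without replicate 2. Replicate 2 also had the lowest B cell marker sum of the naive libraries, 13.57. With the B cell marker level as a covariate the Fos value was 0.83 (limma adjusted p = 0.988). The same library had the highest Hspa1a and Hspa1b values, and naive WT replicate 1 had the highest myeloid marker sum, 15.86. The part of the heat shock and myeloid genes in the Fos value was not tested.

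The interaction term asked whether the TFH minus naive difference itself differed between genotypes. It was called for 2 of 14042 genes (0.0142%) and for none of the 9 members, each with a limma adjusted p of 0.997. Fos had a difference smaller in KO than in WT by an interaction of -1.004 ± 0.39 (95% interval -1.97 to -0.04), which was -0.56 without naive WT replicate 1 and -1.45 without replicate 2. Fosl2 had an interaction of 0.61 ± 0.19 (0.19 to 1.03) and Mafk one of 0.46 ± 0.14 (0.16 to 0.76). These 3 members had an unadjusted p below 0.05, as 614 genes had. In Fos, Fosl2, Maff and Mafk the KO libraries lay wholly on opposite sides of the WT libraries in naive and TFH cells, a pattern that 5.96% of all genes shared. Maff had an interaction of 0.42 ± 0.22 and Fosb one of -0.91 ± 0.57. With the B cell marker level as a covariate the Fosb interaction was -0.95 ± 0.175 (limma adjusted p = 0.178). Jun, Junb, Jund and Atf3 had values of 0.41 ± 0.52, 0.04 ± 0.18, 0.24 ± 0.17 and 0.11 ± 0.91.

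Other genes of the AP-1 pathway were followed through lists of genes by role. The lists were drawn up with earlier results of these data known, so their counts are descriptions and not independent evidence. Calls below are limma adjusted p below 0.05 between TFH and naive cells, and the 26.3% of all genes called in WT and 19.5% in KO are the background. None of the genes in these lists was called between genotypes in either population, or in the interaction.

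Other bZIP genes were called in both directions, at a share near the background in WT. Of 32 measured, 5 rose and 4 fell in WT, and 6 rose and 4 fell in KO, with a median difference of -0.03 and -0.07. Nfil3, a bZIP repressor gene, rose by 3.73 ± 0.31 in WT (limma adjusted p = 0.00051) and by 3.52 ± 0.31 in KO (0.000848). Atf4, the factor of the integrated stress response, rose by 1.28 ± 0.12 and 1.40 ± 0.12, and Cebpb by 1.47 ± 0.22 and 1.89 ± 0.22. Cebpg fell by 0.75 and 0.85 on the log2 scale. Batf and Maf, named here after their values were seen because both are known to act in TFH cells, had differences of 0.86 ± 0.27 (limma adjusted p = 0.0672) and 0.87 ± 0.38 (0.168) in WT. In KO they had 0.21 ± 0.27 (limma adjusted p = 0.657) and 0.22 ± 0.38 (0.75).

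Kinases and serum response factors that lie upstream of AP-1 were mixed, with 6 higher and 5 lower of 44 in WT and 3 higher and 7 lower in KO, and medians of 0.01 and 0.07. Map3k8, a kinase that feeds the ERK pathway, rose by 1.41 ± 0.19 in WT and 1.09 ± 0.19 in KO, and Prkca, a protein kinase C gene, by 1.12 ± 0.11 and 0.83 ± 0.11. Map2k3 rose by 0.91 ± 0.14 in WT, and its difference in KO was 0.41 ± 0.14 (limma adjusted p = 0.0664). Rps6ka3, an ERK-activated kinase gene, fell by 0.91 and 0.84 on the log2 scale, and Mapk3, which encodes ERK1, fell by 0.53 in WT and 0.67 in KO. Srf, named after its values were seen as the factor that binds the Fos promoter, had a difference of 0.12 ± 0.10 in WT (limma adjusted p = 0.408).

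Feedback inhibitors of the same kinases moved mostly one way, with 13 of 20 higher and 1 lower in each genotype and medians of 0.73 and 0.78. Dusp1 rose by 3.14 ± 0.11 in WT and 2.97 ± 0.11 in KO, Dusp4 by 3.11 ± 0.15 and 3.03 ± 0.15, Dusp10 by 2.81 ± 0.13 and 3.13 ± 0.13, and Dusp5 by 2.45 ± 0.16 and 2.98 ± 0.16. All encode phosphatases that remove the activating phosphates of MAP kinases. Other immediate early genes were called higher in 29 of 32 cases in each genotype, with none lower and medians of 1.60 and 1.84. Tnfaip3, which encodes the NF-κB inhibitor A20, rose by 5.19 ± 0.11 in WT and 5.37 ± 0.11 in KO, and Klf4 by 4.99 ± 0.17 and 4.85 ± 0.17. Rgs2 rose by 2.78 ± 0.10 and 3.02 ± 0.10, and Cd69, an early activation marker, by 2.48 ± 0.10 and 2.44 ± 0.10. Nr4a1, induced by T cell receptor signals, rose by 2.45 ± 0.10 in WT and 2.66 ± 0.10 in KO.

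T cell genes with described AP-1 sites were less uniform, with 5 of 18 higher and 2 lower in each genotype and medians of 0.73 and 0.50. Il21 rose by 2.89 ± 0.24 in WT and 1.93 ± 0.24 in KO, Ctla4, an inhibitory receptor gene, by 2.50 ± 0.23 and 2.03 ± 0.23, and Il4 by 2.13 ± 0.26 and 1.13 ± 0.26. Il2ra, the high affinity interleukin 2 receptor chain, fell by 0.39 in WT and 0.63 in KO. Il2, the classic target of NFAT and AP-1 and named after its values were seen, had differences of -0.04 ± 0.36 (limma adjusted p = 0.949) in WT and -0.72 ± 0.36 (0.185) in KO. The list of 11 NFAT partners of AP-1 holds not only NFAT genes but also calcineurin subunit genes, Irf4, Irf8 and Rcan1. Of these 11, 4 rose and 1 fell in WT and 3 rose and 1 fell in KO. Ppp3cc, a calcineurin subunit gene, rose by 1.54 ± 0.11 and 1.42 ± 0.11, and Irf4 by 1.22 ± 0.18 and 1.21 ± 0.18. Nfatc1 rose by 0.50 ± 0.12 and 0.45 ± 0.12, while Ppp3ca, another calcineurin subunit gene, fell by 0.80 and 0.44.

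Of 14 heat shock genes, 9 were called higher in WT and 6 in KO, with none called lower and medians of 0.54 and 0.59. Hsp90aa1 rose by 1.42 ± 0.11 in WT and 1.24 ± 0.11 in KO, and Bag3 by 0.94 ± 0.17 and 1.20 ± 0.17. Hspa8 rose by 0.52 ± 0.13 and 0.68 ± 0.13, and Hsp90ab1 by 0.76 ± 0.15 and 0.73 ± 0.15. Hspd1 rose by 0.73 ± 0.10 and Dnaja1 by 0.61 ± 0.11 in WT, while their differences in KO were 0.28 ± 0.10 (limma adjusted p = 0.075) and 0.11 ± 0.11 (0.52). Hspa1a and Hspa1b, named after their values were seen, had TFH minus naive differences of -1.11 ± 1.42 and -1.95 ± 1.38 in WT and of 2.39 ± 1.42 and 0.71 ± 1.38 in KO, none of them called. The part of the heat shock genes in the AP-1 values was not tested.

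**Figure D4:**
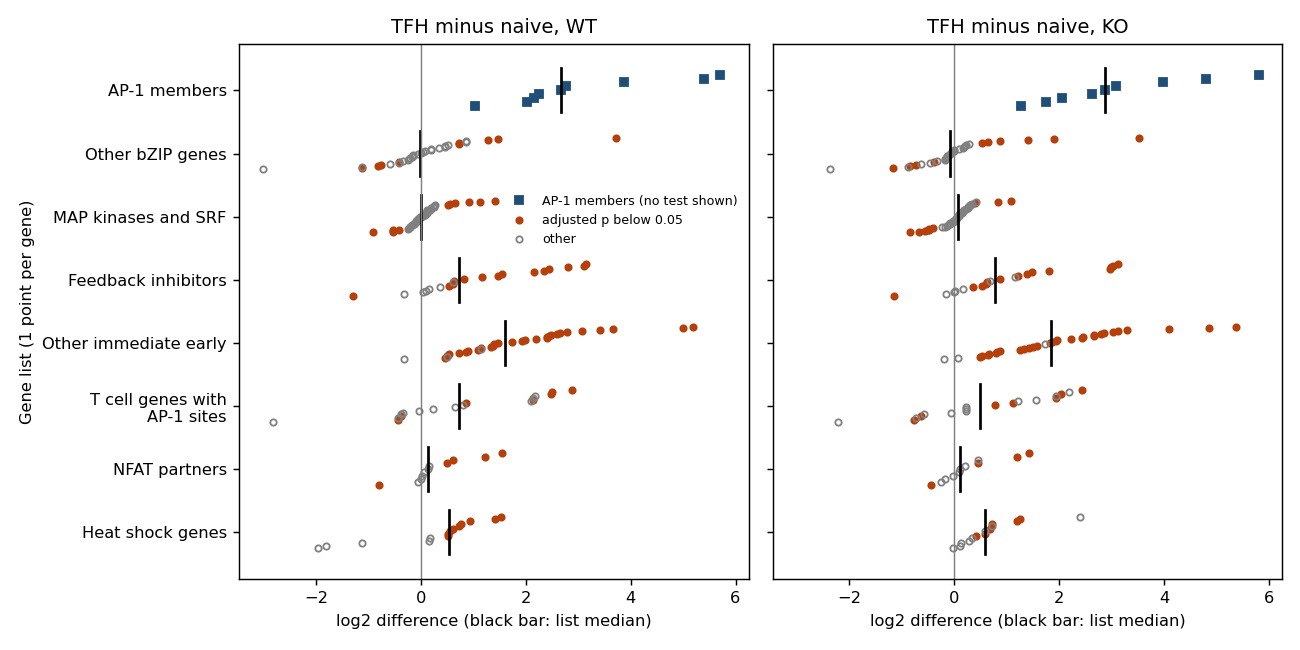
TFH minus naive difference in log2 units (x axis) for the genes of each list (y axis), in WT (left) and KO (right). Blue squares are the 9 members with no test shown, filled red points genes with a limma adjusted p below 0.05, open grey points other genes and black bars list medians; immediate early genes lie almost wholly to the right while other bZIP genes and upstream kinases lie on both sides of 0.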

How the data were processed

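The mRNA of 8 sorted CD4 T cell samples was sequenced as short single-end reads. Per the submitters' processing notes, BWA and the mm10 build were used; no source used here names the counter, annotation, strand setting or normalization. The deposited values were taken as log2 expression, with the base judged from the size of the values. They range from 1.16 to 19.48, and sorted values of the libraries lay within 0.03 of each other above the lowest 1%, as after quantile normalization, so depth is unknown and a global shift in RNA would not show.

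One model with a mean for each of the 4 groups was fitted to 14042 genes with limma 3.58.1 in R 4.3.3 (trend and robust options, 4 residual degrees of freedom), with Benjamini-Hochberg adjustment over all genes and a threshold of 0.05. Members and lists were chosen with earlier results of these data known. All members are named, and from each list the up to 4 called genes with the smallest p per comparison. Genes most like the members were the 8 nearest named genes. Replicate numbers follow accession order and only name libraries. Alternatives changed the variance options, the samples fitted, a filter on low values, ribosomal protein centring, a B cell covariate and the libraries included. The fit was tested on simulated data.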

Additional observations from a re-analysis of the deposited data

Results flagged for a closer look

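For 4 of 9 members both KO libraries lay on one side of both WT libraries in naive cells and on the other side in TFH cells, as did 837 of 14042 genes (5.96%). The interaction of genotype and cell label was -1.004 for Fos, which was higher in KO in naive cells and lower in KO in TFH cells. Leaving out single libraries, the Fos value ran from -1.45 to -0.56, both ends set by a naive WT library. The interaction was 0.61 for Fosl2, 0.42 for Maff and 0.46 for Mafk, which were lower in KO in naive cells and higher in KO in TFH cells. None of these 4 passed the limma test of the interaction, with an adjusted p of 0.997 for each.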

How the results depend on the processing

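All 9 members were higher in TFH than in naive libraries under every alternative tried, a direction that the choice of members fixes and that is no sign of stability. Genes called between TFH and naive numbered 2104 in WT and 1225 in KO without replicate 2 of both TFH groups. Leaving out 1 library at a time gave 1991 to 3726 in WT and 1399 to 2683 in KO. Between genotypes in TFH, fitting the compared groups only called 1 gene, and leaving out single libraries 0 to 2, with no member called under any alternative. In naive cells it called 7 to 17 genes and 0 to 1 members (Fos, without naive WT replicate 2). For the interaction the fit without a mean-variance trend called 0 genes (614 had an unadjusted p below 0.05 in the reported fit), and leaving out single libraries 1 to 7, with no member called.

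Signs turned only where no call was made. With the B cell covariate the KO minus WT difference of Atf3 was -0.08 in TFH and -0.13 in naive cells. Leaving out single libraries, that difference ran from -0.81 to 0.29 for Fosb and from -0.64 to 1.05 for Atf3 in TFH cells. In naive cells it ran from -0.76 to 0.38 for Jun, -0.063 to 0.35 for Junb, -0.10 to 0.22 for Jund and -0.21 to 0.39 for Atf3. The interaction ran from -0.16 to 0.99 for Jun, -0.17 to 0.24 for Junb and -0.73 to 0.96 for Atf3. The cause was not tested. Where a group is left with 1 library, it is assumed to vary like the others. No paired analysis was possible because the labels give no shared replicate numbers. Ribosomal protein centring moved no comparison by more than 0.063. Depth is unknown, so no limit of detection can be given for Atf3 or other low genes.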
